A study of Canis lupus familiaris with 22 samples.

Results

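The macular retina was compared with the macular RPE/choroid of the same eye in 4 mixed-breed dogs. RPE stands for the retinal pigment epithelium, and the choroid is the layer of vessels underneath. The libraries were chosen by their titles, as macular retina or macular RPE/choroid of dogs 18-2, 18-6, 18-7 and 18-9, and made up 8 of the 22 libraries of the series. The 8 peripheral libraries of the same dogs were used only beside macular values. Libraries of other dogs, sampled with the retina on or off, were left out.

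Dogs 18-2 and 18-7 were labelled as pitbull mixes, 18-6 as a mastiff mix and 18-9 as a boxer mix. Their estimated ages were 2 to 3 years for dogs 18-2 and 18-9 and 3 to 5 years for dogs 18-6 and 18-7. Dogs 18-2 and 18-6 were male and gave a left eye, and dogs 18-7 and 18-9 were female and gave a right eye. Sex and eye side could therefore not be told apart between dogs. Within a dog, both tissues came from the same side. The labels name no treatment or genotype.

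The neural retina holds the rod and cone photoreceptors, the interneurons and ganglion cells that carry their signal, and glia. The RPE recycles the visual pigment, takes up shed photoreceptor outer segments and forms the outer blood-retina barrier. The choroid adds vessels, fibroblasts, pigment cells and immune cells. In bulk tissue, fewer cells of a type and less RNA per cell cannot be told apart, and this holds for every difference given here.

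The files name genes by dog Ensembl identifier alone. The reference table used here gave a symbol for 0 of all 30951. The tissues could therefore not be checked against defining cell markers, and genes are described as identifiers and by class. As a check that needs no names, each of the 8 macular libraries correlated most strongly with another library of its own labelled tissue. Correlations of log2 CPM (read counts scaled to a common library total) between macular retina and macular RPE/choroid ran from 0.484 to 0.575 across identifiers. Total counts per library ran from 4855463 to 6788365 in retina and from 4569782 to 7044176 in RPE/choroid. Dog 18-6 had the fewest counts in both tissues.

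The first question was how much of the transcriptome differed between the tissues. Of 14997 identifiers that passed the filter on low counts, retina had the higher level for 4711 (31.4%) and RPE/choroid for 4745 (31.6%), together 63.1%, and 5541 were not called (edgeR, Benjamini-Hochberg adjusted p under 0.05, paired by dog, n = 4 dogs). The balance of directions depends on the scaling, since TMM normalization centres the fold changes. Scaled by library totals alone, 5319 were called towards retina and 4338 towards RPE/choroid, and the median log2 fold change moved from 0.01 to 0.09. Many of these differences were small. The difference was under 2-fold for 2037 of the identifiers called towards retina and for 1753 of those called towards RPE/choroid. Tested against a minimum of 2-fold rather than against no difference, 2038 identifiers (13.6%) were higher in retina and 2393 (16%) in RPE/choroid (edgeR glmTreat, adjusted p under 0.05). Under this stricter test the RPE/choroid side was the larger one. Scaled by library totals alone, the counts were 2149 in retina and 2274 in RPE/choroid. With a fitted difference above 64-fold the order was the reverse, with 397 called towards retina and 227 towards RPE/choroid. Of these, 207 and 112 had at most 3 pooled counts in the other tissue.

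Over all 14997 tested identifiers, 11108 had the same direction in all 4 dogs. The calls were made on these dogs, so their own agreement is a description. In all 4 dogs the ratio pointed to retina for 4703 (99.8%) of the identifiers called higher there, and to RPE/choroid for 4619 (97.3%) of those called higher in that tissue. For 8670 of the 9456 called identifiers, CPM in the 4 libraries of one tissue did not overlap with CPM in the 4 of the other. Among all tested identifiers 9413 (62.8%) did not overlap, 5206 (34.7%) with retina and 4207 (28.1%) with RPE/choroid on the higher side. The CPM and ratios of single dogs were scaled by library totals, without the TMM factors of the calls, which moves them towards retina. Their median log2 ratio over all tested identifiers was 0.07, 0.08, 0.07 and 0.13 in dogs 18-2, 18-6, 18-7 and 18-9. How far the uneven split and the agreement of each dog depend on this scaling was not tested. Dog 18-9 went against the call most often, for 59 identifiers (0.624%), and dog 18-6 least often, for 13 (0.137%). The size of the difference varied more than its direction. The median log2 ratio of the identifiers called higher in retina was 1.30 in dog 18-2, 1.42 in dog 18-6, 1.13 in dog 18-7 and 1.26 in dog 18-9. For those called higher in RPE/choroid it was -1.27, -1.43, -1.21 and -1.37 in the same order. Dog 18-6 had the widest and dog 18-7 the narrowest separation on both sides.

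**Figure D1:**
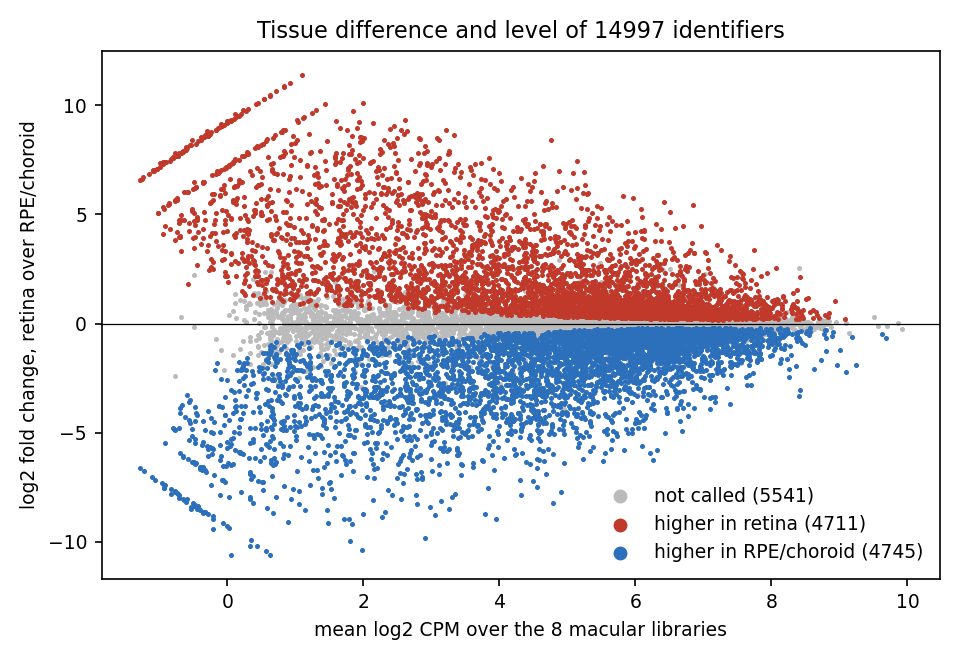
Each point is 1 of the 14997 tested identifiers. The x axis is the mean log2 CPM over the 8 macular libraries and the y axis the log2 fold change of retina over RPE/choroid; red points (4711) were called higher in retina, blue points (4745) higher in RPE/choroid and grey points (5541) were not called. Fold changes narrow towards high levels, and the straight lines of points at the left are identifiers with no or very few counts in one tissue.

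Large fold changes were more frequent among identifiers with a low mean log2 CPM over both tissues. A low level in the other tissue lowers this mean, so it is not the level in the higher tissue. A retina class of 1641 identifiers and an RPE/choroid class of 1808 were called with a fitted difference of 4-fold or more. Of these, 492 and 776 had a mean log2 CPM of 4 or more. Among the 4935 identifiers with a mean log2 CPM of 6 to 8, 58.1% were called but only 5.53% were called and at least 4-fold apart. Among the 2421 with a mean of 2 to 4, 70.3% were called and 42.9% were at least 4-fold apart. Of the 268 identifiers with a mean of 8 or more, 50.4% were called and 2.99% were at least 4-fold apart, with a median absolute log2 fold change of 0.26. The balance of directions also differed between bands of this mean, and was not examined by the level in the higher tissue. In the band of 0 to 2, the retina class made up 29.0% and the RPE/choroid class 23.4%, whereas in the band of 4 to 6 the shares were 6.94% and 11.1%. An identifier of low mean level could pass the filter through the tissue where it was high, so that the lowest bands hold tissue-biased identifiers by construction. The median standard error of the log2 fold change fell from 0.44 in the band of 0 to 2 to 0.09 in the band of 6 to 8, so the smallest differences could be called only among abundant identifiers.

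An identifier that was not called was not thereby shown to be equal. For 4483 of the 5541 uncalled identifiers, the 95% interval of the log2 fold change lay within 2-fold in either direction. For the other 1058 the interval reached beyond 2-fold, and a difference of that size was not excluded by these data. A further 2615 called identifiers also had intervals within 2-fold. In all, 7098 tested identifiers (47.3%) had a 95% interval within 2-fold. Unlike the calls, the intervals were not adjusted for the number of identifiers tested. They therefore describe single identifiers and do not bound the whole set jointly.

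The most abundant transcripts were then compared. The 100 most abundant identifiers of each tissue, ranked on the pooled counts of its 4 libraries, had 34 in common. Of these 34, 25 were not called, and their median absolute log2 fold change was 0.16. The other 66 of the retina were nearly all tissue-biased. Higher in retina were 65 of them, 33 by at least 4-fold, with a median log2 fold change of 2.03. Of the 66 most abundant in RPE/choroid alone, 63 were higher there, 32 by at least 4-fold, with a median of -1.91. Since a rank among the top 100 of one tissue favours identifiers high in it, these counts describe the lists and are read against the 31.4% and 31.6% called in each direction over all identifiers.

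Among identifiers over 4-fold higher in retina, ENSCAFG00000006995 and ENSCAFG00000011769 were the most abundant there, ranking 6 and 8 among all identifiers. ENSCAFG00000006995 had 745, 883, 759 and 768 CPM in macular retina and 26.4, 20.1, 16.2 and 8.94 CPM in macular RPE/choroid of dogs 18-2, 18-6, 18-7 and 18-9. Every retina library lay far above every RPE/choroid library, and dog 18-6 had the highest retina value. Its log2 fold change was 5.45 ± 0.28 (SE, edgeR adjusted p = 5.07e-05, n = 4 dogs). ENSCAFG00000011769 had 793, 725, 737 and 711 CPM in retina and 163, 107, 218 and 163 CPM in RPE/choroid, in the same order of dogs. Its retina values lay close together and its RPE/choroid values spread over 2-fold, without overlap between the tissues. The log2 fold change was 2.14 ± 0.18 (SE, edgeR adjusted p = 2.26e-04), and 1.98 without dog 18-6.

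On the RPE/choroid side the corresponding identifiers were ENSCAFG00000015228 and ENSCAFG00000019521, ranking 1 and 3 in that tissue. ENSCAFG00000015228 had 1110, 1381, 1045 and 1091 CPM in RPE/choroid and 247, 256, 301 and 237 CPM in retina of dogs 18-2, 18-6, 18-7 and 18-9. It was thus also an abundant transcript of the retina libraries, where it ranked 417. Its log2 fold change was -2.23 ± 0.12 (SE, edgeR adjusted p = 6.43e-05, n = 4 dogs). ENSCAFG00000019521 had 1050, 1262, 903 and 983 CPM in RPE/choroid and 145, 88.4, 122 and 97.5 CPM in retina, in the same order. Neither identifier overlapped between the tissues, and dog 18-6 had the highest RPE/choroid value of both. The log2 fold change of ENSCAFG00000019521 was -3.31 ± 0.20 (SE, edgeR adjusted p = 7.97e-05).

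In the peripheral libraries these 4 identifiers had the same direction. The peripheral log2 fold change was 5.67 ± 0.39 for ENSCAFG00000006995, 1.74 ± 0.15 for ENSCAFG00000011769, -1.99 ± 0.13 for ENSCAFG00000015228 and -2.60 ± 0.18 for ENSCAFG00000019521 (SE, edgeR, n = 4 dogs). In the fit with each dog's region as a block, the difference between the regions did not pass the threshold for any of them. The interaction adjusted p-values ran from 0.199 to 0.846 (edgeR, background 1.87% called). Other pairings of the dogs called more identifiers, as given below, and their values for these 4 are not given.

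**Figure D2:**
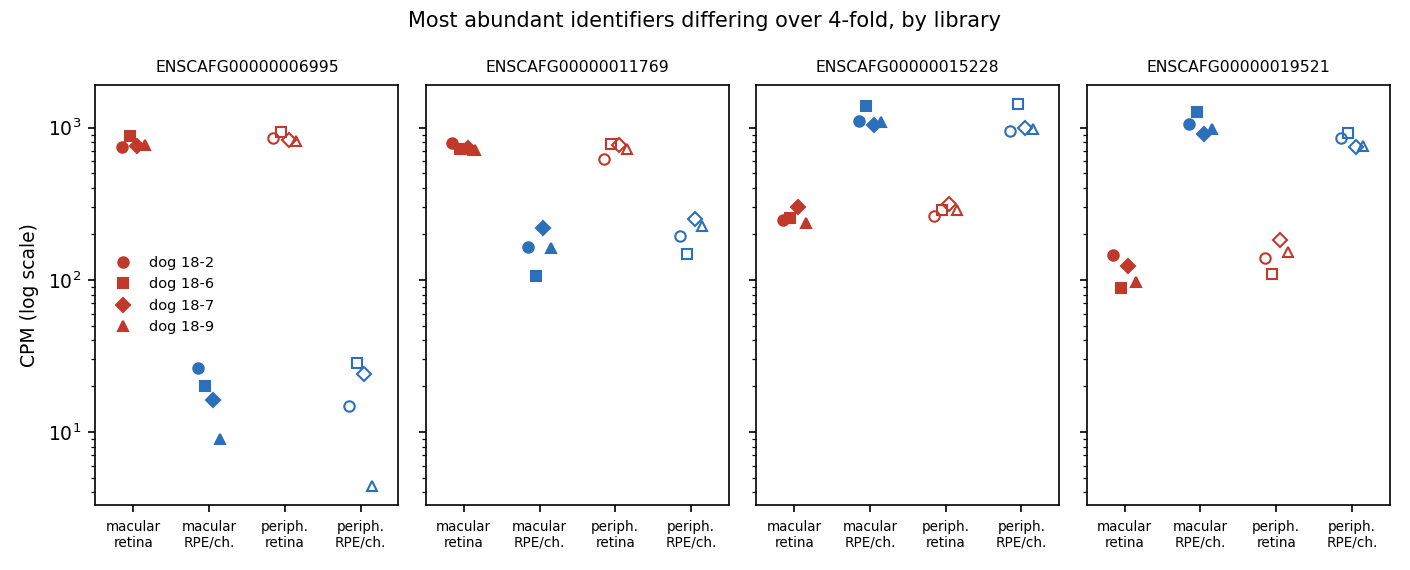
CPM on a log scale in each library, for the 2 most abundant identifiers over 4-fold higher in macular retina (left panels) and in macular RPE/choroid (right panels). Filled symbols are macular and open symbols peripheral libraries, red is retina, blue is RPE/choroid, and symbol shapes mark the 4 dogs. In each panel the tissues do not overlap in either region.

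No identifier dominated the counts of a library. The sources do not give how duplicate reads were handled, so the share of the most abundant identifiers in the tissue itself is uncertain. The most abundant one took 0.0969 ± 0.0024% of the counts in retina and 0.118 ± 0.015% in RPE/choroid (SD, n = 4 each), and 0.140% at most, in the RPE/choroid of dog 18-6. The 10 most abundant identifiers held 0.816 ± 0.038% of a retina library and 1.00 ± 0.09% of an RPE/choroid library. In RPE/choroid this share was higher in 4 of 4 dogs, by 0.187 ± 0.074 percentage points. The share of the top 100 was 5.12 ± 0.23% and 5.51 ± 0.29%, also higher in RPE/choroid in 4 of 4 dogs. Over the 4 composition tests the exact two-sided sign-flip permutation test gave p = 0.125 for both shares, the smallest that 4 dogs allow, and an adjusted p of 0.25. Between 2377 and 2580 identifiers were needed to reach 50% of the counts of a library.

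The number of identifiers detected was nearly equal. Thinned to 4569782 counts, the size of the smallest library, retina libraries held 18004 ± 97 identifiers with a count and RPE/choroid libraries 17928 ± 183 (SD, n = 4 each). The difference of 76.2 ± 103 was smaller than its spread between dogs, with 2 of 4 dogs on each side (exact sign-flip permutation test, p = 0.5).

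Of the 30951 identifiers, 18875 had counts in both macular tissues and 8249 in neither. Counts in retina and none in any of the 4 RPE/choroid libraries were found for 1840 identifiers, 349 of them detected in every retina library. The reverse held for 1987 identifiers, 333 of them detected in every RPE/choroid library. These identifiers were mostly rare, with a median of 0.941 and 0.969 pooled CPM among those in every library of their tissue. They held 0.134% of all retina counts and 0.103% of all RPE/choroid counts. At 10 CPM or more there were 30 in retina and 16 in RPE/choroid. Set against a floor of 3 counts over the pooled libraries of the other tissue, the retina level was at least 100-fold higher for 25 identifiers, and the RPE/choroid level for 10. The floor covers counting error only.

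The identifiers at least 4-fold apart, 1641 and 1808 of the 14997 tested, accounted for a minority of the counts of each library. The 1641 higher in retina held between 11.3% (dog 18-9) and 12.0% (dog 18-6) of the counts in macular retina. In macular RPE/choroid of dogs 18-2, 18-6, 18-7 and 18-9 they held 1.26, 0.843, 1.41 and 0.906%. The 1808 higher in RPE/choroid held 14.3, 15.3, 12.9 and 15.7% in macular RPE/choroid and 1.63, 1.54, 1.68 and 1.81% in macular retina. These classes were chosen on the same libraries, so their separation is a description. The RPE/choroid of dogs 18-2 and 18-7 had the most counts of the retina class and the fewest of the RPE/choroid class. Identifiers that were not called held 39.3 ± 0.2% of the retina counts and 37.6 ± 1.3% of the RPE/choroid counts (SD, n = 4 each).

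**Figure D3:**
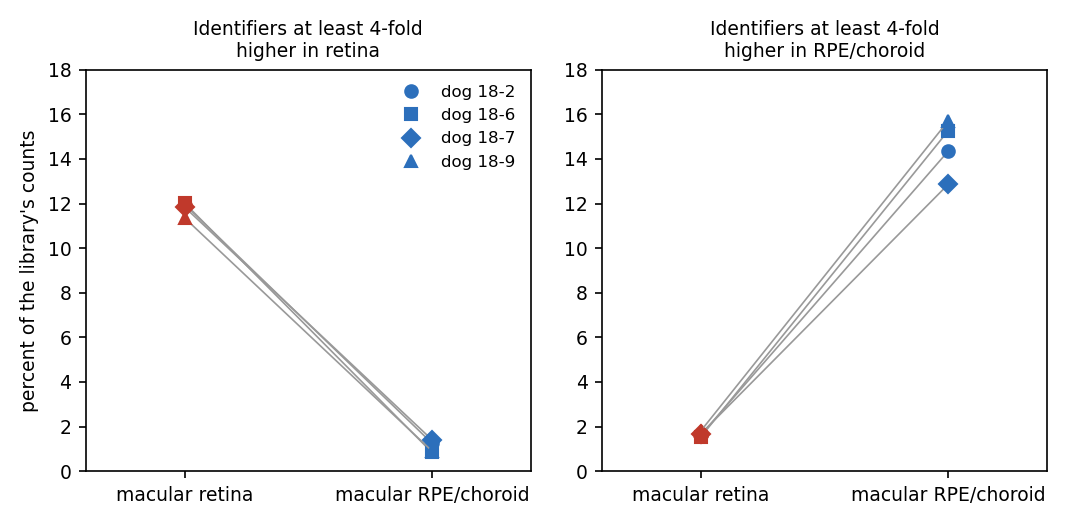
Percent of each macular library's counts held by the 1641 identifiers at least 4-fold higher in retina (left) and the 1808 at least 4-fold higher in RPE/choroid (right), with a line joining the tissues of a dog. The left class runs from 11.3 to 12.0% in retina and from 0.843 to 1.41% in RPE/choroid, and the right class from 1.54 to 1.81% and from 12.9 to 15.7%.

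The classes were then measured in the peripheral libraries of the same dogs, which had not chosen them. The retina class held 11.0 ± 0.3% of peripheral retina and 1.44 ± 0.30% of peripheral RPE/choroid counts, and the RPE/choroid class 1.75 ± 0.14% and 12.3 ± 0.5% (SD, n = 4 each). Of the 1641 identifiers of the retina class, 1589 (96.8%) were higher in retina in all 4 peripheral pairs. Of the 1808 of the RPE/choroid class, 1735 (96.0%) were higher in RPE/choroid in all 4. The same share over all tested identifiers is not given here. On another measure, the fitted direction was alike in both regions for 12677 of the 14568 identifiers tested in both. In the retina class it was alike for 1525 of 1539, and in the RPE/choroid class for 1662 of 1664. The peripheral comparison itself called 1484 of the 1641 (90.4%) and 1640 of the 1808 (90.7%) in the same direction, against 32.8% called towards retina and 33.1% towards RPE/choroid among all identifiers it tested.

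The identifiers of largest fold were followed in dogs that had not chosen them. For each dog, lists of 200 were chosen on the other 3 dogs and then measured in the dog left out. The retina list held 1.95 ± 0.05% of the counts in retina and 0.0180 ± 0.0068% in RPE/choroid (SD, n = 4). In RPE/choroid its share was 0.0262% in dog 18-2, 0.0149% in dog 18-6, 0.0202% in dog 18-7 and 0.0104% in dog 18-9. Relative to the retina of the same dog this was 1.31, 0.758, 1.04 and 0.557%. The RPE/choroid list held 2.31 ± 0.29% of the counts in RPE/choroid and 0.0446 ± 0.0118% in retina, which was 1.39, 2.19, 2.06 and 2.04% of its level in the RPE/choroid of the same dog. Choosing identifiers of largest fold favours those nearly absent from the other tissue, so the low shares there follow in part from the choice and do not measure how much of one tissue the other held. In each dog left out, 200 of 200 members of either list were on the side for which they had been chosen. That agreement follows largely from choosing the largest folds with 1 direction in the other 3 dogs. Of all 14997 tested identifiers, 11108 had the same direction in all 4 dogs. The shares also depend on list size, and lists of 500 held 0.148% and 0.209% in the other tissue.

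Dogs differed more from each other in RPE/choroid than in retina. The SD of log2 CPM over the 4 dogs had a median of 0.17 in retina and 0.22 in RPE/choroid across the 14997 tested identifiers, and 9205 (61.4%) had the larger SD in RPE/choroid. Across the 10662 identifiers with a mean log2 CPM of 4 or more, correlations between dogs ran from 0.947 to 0.977 in retina and from 0.877 to 0.965 in RPE/choroid. No p is given, since identifiers are not independent replicates. At like level within each tissue the order was the same. Identifiers at a log2 CPM of 6 to 8 in retina (5191) had a median SD of 0.12 there, and those at 6 to 8 in RPE/choroid (5149) a median SD of 0.15 there.

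**Figure D4:**
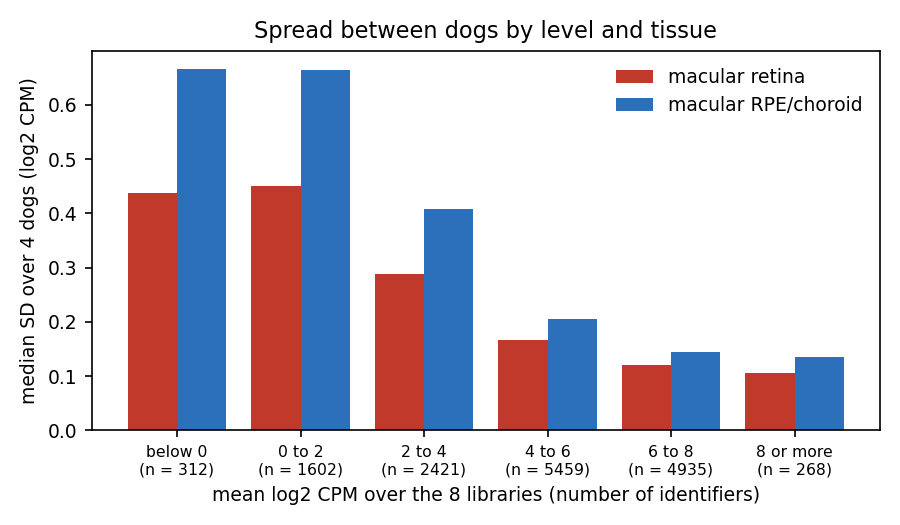
Median SD over the 4 dogs of log2 CPM in macular retina (red) and macular RPE/choroid (blue), for identifiers in bands of mean log2 CPM over the 8 libraries. The bar of RPE/choroid is the higher in every band, for example 0.21 against 0.17 in the band of 4 to 6.

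The spread was then compared between the classes. Among the 492 identifiers at least 4-fold higher in retina with a mean log2 CPM of 4 or more, the median SD over dogs was 0.14 in retina and 0.56 in RPE/choroid, and in RPE/choroid 107 (21.7%) had an SD above 1. Among the 776 at least 4-fold higher in RPE/choroid, the median SD was 0.21 in RPE/choroid and 0.33 in retina, where 47 (6.06%) had an SD above 1. In the tissue where an identifier is low its counts are fewer, and the part of counting error in these SDs was not tested. Among the 4284 uncalled identifiers of that level, 143 had an SD above 1 in RPE/choroid and 38 in retina, with medians of 0.16 and 0.14.

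The library farthest from its group was most often that of dog 18-6 in both tissues. Among the 10662 identifiers with a mean log2 CPM of 4 or more, the retina library farthest from the group mean was that of dog 18-6 for 39.6% and that of dog 18-2 for 33.1%, against 12.1% for dog 18-7 and 15.1% for dog 18-9. In RPE/choroid it was dog 18-6 for 33.9%, dog 18-9 for 27.9%, dog 18-7 for 26.0% and dog 18-2 for 12.1%. Dog 18-6 had the fewest counts in both tissues. Across all 14997 tested identifiers, the median SD was 0.17 in retina and 0.22 in RPE/choroid with all 4 dogs. Without dog 18-6 it was 0.14 and 0.19, the lowest values with any dog left out.

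Lastly, the size of the tissue difference in the macula was tested against that in the periphery of the same dogs. With each dog's region as a block, 292 of 15577 identifiers (1.87%) passed the interaction test, 114 (0.732%) with a shift towards retina in the macula and 178 (1.14%) with a shift towards RPE/choroid (edgeR, n = 4 dogs). Among the 1808 identifiers at least 4-fold higher in macular RPE/choroid, the difference was larger in the macula for 62 and smaller for 9. Among the 1641 at least 4-fold higher in macular retina it was larger for 29 and smaller for 19. Since these classes were chosen on the macular fold change, which enters the interaction, an excess of larger differences follows in part from that choice. The same choice bears on the median log2 fold changes of the classes. They were 3.99 in the macula against 3.60 in the periphery for the retina class and -3.38 against -3.16 for the RPE/choroid class.

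The number of such identifiers depended strongly on how dogs were paired and on single dogs. With each dog's tissue as the block, 2993 (19.2%) were called, and with both pairings together 2049 (13.2%), among them all 292 of the first fit. With both pairings, differences larger in the macula numbered 275 against 67 smaller for the RPE/choroid class and 199 against 62 for the retina class. With dog 18-2, 18-6, 18-7 or 18-9 left out, the first fit called 20, 11, 46 and 26 identifiers. Unadjusted p-values under 0.05 (edgeR) varied less in number, from 3318 with 4 dogs to between 2135 and 3112 with 3.

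**Figure D5:**
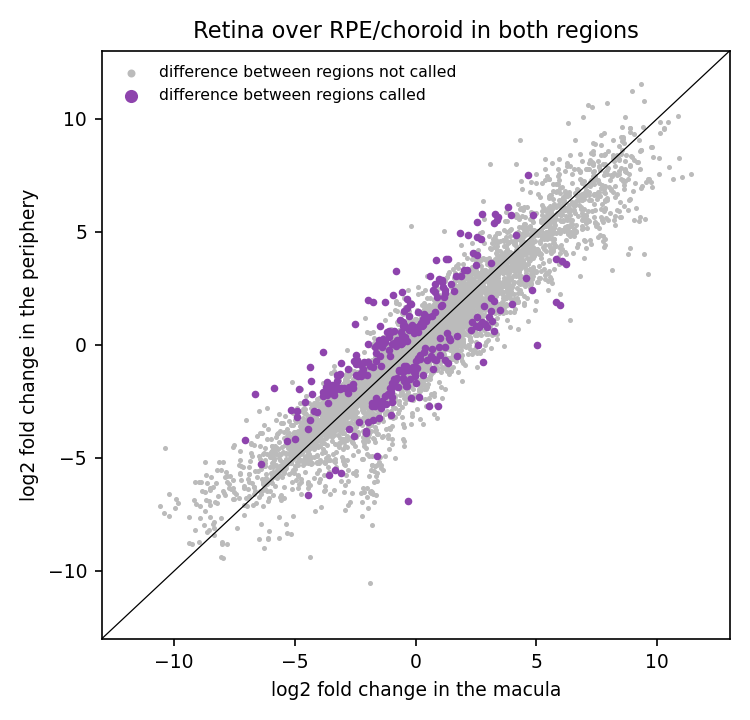
Log2 fold change of retina over RPE/choroid in the macula (x axis) and in the periphery (y axis) for the 14568 identifiers tested in both regions, with the line of equal values. Purple points passed the interaction test with each dog's region as a block; most points lie along the line.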

How the data were processed

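RNA-seq counts of macular retina and macular RPE/choroid were analysed in 4 dogs. Total RNA was extracted on columns with a DNase step and made into directional Illumina libraries, per the labels' protocols. The deposited files hold raw read counts per Ensembl identifier. Tools listed without a role in the submitters' processing notes are featureCounts 2.0.0, HISAT2 2.1.0, SAMtools, FastQC 0.11.8 and Trimmomatic 0.39. Not given in the sources used here are the genome build, the annotation, the strand setting and how duplicates were handled, so overlapping, antisense and near-identical genes are uncertain, and so is the share of the most abundant ones.

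Counts were tested with edgeR 4.0.16 (glmQLFit, glmQLFTest, glmTreat) in R 4.3.3, with TMM factors, filterByExpr by group, the dog as a block and an adjusted p threshold of 0.05. The scripts were tested on simulated data, in which few of 14997 identifiers were set to differ, unlike in these data. At an absolute log2 fold change of 1, 56% of 100 changed identifiers were called, and at 2, 82% of 100. Of 150 calls, 12 were false. All adjusted p-values of single identifiers come from this test. The SE of a macular log2 fold change was not taken from the model. It was computed as the absolute log2 fold change divided by the square root of the F statistic. The 95% intervals were t intervals on this SE, without adjustment for multiple testing. CPM was scaled by total counts, and log2 CPM used a pseudocount of 0.5. Thinning gives the expected number of identifiers. Lists of 200 required 1 or more as mean log2 CPM and 1 direction in the dogs that chose them. Exact permutation tests used scipy 1.17.1. Named identifiers were the 2 per direction with the highest pooled CPM among those called, over 4-fold apart and alike in every dog. Gene lists by symbol were planned and not used, since no identifier matched. Members, lists and rules were chosen with earlier results of these data known.

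The pairing comes from the labels, which give the same dog and eye side. Deviations from the group means of same-dog libraries correlated between -0.14 and 0.11 across identifiers, and between -0.38 and 0.28 for libraries of different dogs. No label says how libraries were batched. No libraries were duplicates (chi-square per degree of freedom at least 4.91 over 12 pairs). Alternatives were DESeq2 1.42.0, other normalization, no filter, no block, a fit over 16 libraries and each dog left out. Precision is limited by 4569782 to 7044176 counts per library and 4 dogs.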

Additional observations from a re-analysis of the deposited data

Results flagged for a closer look

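Of 24 groups of 4 libraries examined, 1 held a library far from the others, which is about what chance gives at 1 in 20. ENSCAFG00000006995 was at 883 CPM in the macular retina of dog 18-6, the library with the fewest counts of that tissue, against 745 to 768 CPM in the other 3 dogs.

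The size of the tissue difference differed between macula and periphery for 292 identifiers by the interaction test, with the dependence on pairing and on single dogs given above.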

How the results depend on the processing

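The counts of identifiers higher in either tissue stayed within 1.5 times under every alternative run, both against no difference and against 2-fold. With dogs left out in turn, 4050 to 4254 were higher in retina and 4064 to 4344 in RPE/choroid. Without the replicate block 4779 and 4866 were called, with DESeq2 4580 and 4594, and with library totals alone 5319 and 4338, the widest imbalance. Across the 10 alternatives 84.1 to 99.4% of the calls were kept with the same direction, and 0 reversed. The 4 named identifiers kept their call throughout. The interaction counts did not hold. Towards retina and towards RPE/choroid they were 317 and 388 without the replicate block, 545 and 636 with the dog alone as the block, 1502 and 1491 with dog by tissue and 1048 and 1001 with both pairings, the last pair of settings chosen after seeing the data. With dogs left out they ran from 2 to 15 and from 7 to 31. The cause was not tested. Lists of 50 held 0.00179% (retina list in RPE/choroid) and 0.00367% (RPE/choroid list in retina), and lists of 500 held 0.148% and 0.209%. The median SD ran from 0.137 to 0.183 in retina and from 0.188 to 0.233 in RPE/choroid with dogs left out. Depth limits the identifiers without a count in one tissue, where 3 pooled counts equal 0.121 CPM in RPE/choroid and 0.123 CPM in retina.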
